A study of Mus musculus with 24 samples.

Results

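The genes of the KLF, SP and EGR families were examined as a set of 30 zinc finger factor genes, 17 Klf (Klf1 to Klf17), 9 Sp (Sp1 to Sp9) and 4 Egr (Egr1 to Egr4), chosen by name. All 30 were found among the 21755 protein-coding genes of the GENCODE vM21 annotation on the 20 chromosomes used. The readout was histone H3 trimethylated at lysine 4 (H3K4me3), a modification found at the start sites of active genes, mapped by ChIP-seq in the mouse line C127, labelled as mammary epithelium. The series held 24 samples in 12 groups and was made to ask how CFP1, a DNA-binding subunit of the SET1 methyltransferase complexes, is targeted to promoters. The group used here was the H3K4me3 ChIP with 3 replicates, from formaldehyde-crosslinked C127 cells grown in serum, for which the labels name no tag, mutation or treatment. It has 1 input sample of its own. The other 21 samples (ChIP of CFP1, its GFP-tagged mutants, KDM2B and RNA polymerase II, with controls) were not used here.

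The data were 13451 consensus peaks, kept where the replicates overlapped (median width 2647 bp). Only the position of each peak in mm10 is given. No value therefore has a replicate error, read depth is unknown, and a difference in the number of marked cells and in the mark per cell cannot be told apart. A gene was counted as marked when a peak lay within 250 bp of any of its transcription start sites (TSSs) in the basic GENCODE set. The cell label was compared with marker genes. Of the luminal mammary markers 2 of 8 had a TSS peak (Esr1 and Gata3, but not Krt8, Krt18, Krt19, Cdh1, Epcam or Elf5), of the basal mammary markers 0 of 4, and of the fibroblast markers 5 of 6 (Vim, Fn1, Col1a2, Pdgfra and Twist1, but not Col1a1). None of the 4 leukocyte and 3 endothelial markers had one. Of all protein-coding genes 49.4% had a TSS peak. The listed keratin and E-cadherin promoters were therefore unmarked in these cells, while those of Esr1 and Gata3 were marked, and the cells are called C127 below.

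KLF and SP proteins share a C-terminal DNA-binding domain of C2H2 zinc fingers that reads GC boxes and CACCC boxes, and EGR proteins bind a related GC-rich site through fingers of the same class. What sets the families apart lies mostly outside the fingers: many KLFs carry short motifs that recruit the corepressors CtBP or SIN3A, the SP proteins carry glutamine-rich or other activation domains, and Egr1, Egr2 and Egr3 bind the NAB corepressors. Expression differs as much as sequence, since Sp1 and Sp3 are present in nearly every cell, several EGR and KLF genes are switched on within minutes of serum or growth factor stimulation, and others are restricted to red cells, bone, limb bud, neurons or germ cells.

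Promoter sequences are shown for 3 members at which CpG content and the peak went apart, beside Klf4, where both were present. They are the 250 bases before a RefSeq start site (GRCm38.p6), written 5′ to 3′ on the strand of the gene in lower case with each CpG in capitals. Klf4, a reprogramming and epithelial barrier factor, had a peak and 32 CpGs in this window (chr4:55532476-55532725, minus strand). Klf15, a glucocorticoid-induced regulator of metabolism in liver and muscle, had no peak and 37 CpGs (chr6:90462326-90462575, plus strand). Egr4, an EGR factor of neurons and germ cells, had no peak and 28 CpGs (chr6:85513590-85513839, minus strand). Sp2, a broadly expressed SP factor, had a peak at each of 2 internal promoters, one with 18 CpGs (chr11:96977689-96977938, minus strand) and one with a single CpG (chr11:96968666-96968915, minus strand).
Klf4 (peak): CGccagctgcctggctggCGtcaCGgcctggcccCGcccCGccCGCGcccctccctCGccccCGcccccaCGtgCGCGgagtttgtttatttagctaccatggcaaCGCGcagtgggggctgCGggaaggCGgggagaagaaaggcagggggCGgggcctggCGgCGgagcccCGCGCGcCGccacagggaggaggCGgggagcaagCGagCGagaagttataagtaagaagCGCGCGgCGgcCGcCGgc
Klf15 (no peak): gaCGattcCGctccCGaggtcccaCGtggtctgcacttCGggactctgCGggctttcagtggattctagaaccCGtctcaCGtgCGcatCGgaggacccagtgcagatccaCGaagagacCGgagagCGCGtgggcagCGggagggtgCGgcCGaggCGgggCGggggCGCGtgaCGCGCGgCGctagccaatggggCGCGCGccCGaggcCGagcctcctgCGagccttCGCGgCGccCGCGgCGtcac
Egr4 (no peak): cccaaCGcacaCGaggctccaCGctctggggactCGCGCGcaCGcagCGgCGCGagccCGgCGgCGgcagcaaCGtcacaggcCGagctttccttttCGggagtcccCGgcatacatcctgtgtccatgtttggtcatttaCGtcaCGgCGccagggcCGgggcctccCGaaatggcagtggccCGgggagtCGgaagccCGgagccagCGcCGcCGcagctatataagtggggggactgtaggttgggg
Sp2, island promoter (peak): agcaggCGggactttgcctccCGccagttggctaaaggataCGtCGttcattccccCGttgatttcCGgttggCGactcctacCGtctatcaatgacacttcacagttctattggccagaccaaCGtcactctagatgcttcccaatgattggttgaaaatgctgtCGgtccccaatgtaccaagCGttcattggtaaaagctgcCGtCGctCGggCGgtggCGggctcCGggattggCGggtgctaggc
Sp2, promoter without an island (peak): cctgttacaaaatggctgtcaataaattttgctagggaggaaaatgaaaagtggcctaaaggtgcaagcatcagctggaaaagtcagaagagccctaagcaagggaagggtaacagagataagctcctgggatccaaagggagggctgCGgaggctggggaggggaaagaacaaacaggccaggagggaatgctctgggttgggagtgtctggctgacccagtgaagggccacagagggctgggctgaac
The Klf15 window was at least as rich in CpG as that of Klf4, and the Sp2 promoter without an island was nearly free of CpG.

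H3K4me3 was present at 20 of the 30 genes (66.7%), against 49.4% of all protein-coding genes. By family the marked genes were 11 of 17 Klf, 6 of 9 Sp and 3 of 4 Egr, so each family lay above that background and the 3 shares lay close together. Most members have a promoter within a CpG island, a stretch of DNA rich in CpG that in vertebrates covers many promoters. Such an island came within 250 bp of a TSS in 27 of 30 members, against 68.1% of all protein-coding genes. Among genes with an island promoter 20 of 27 members had a peak, against 70.2% of all such genes, and among genes without one 0 of 3 members did, against 5.02% of all such genes. Once island promoters were compared with island promoters, the members' share (20 of 27) was thus near the background. This holds for the island definition used here, and the background share with stricter islands is not given.

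The 3 members without an island or a peak are each tied to a single lineage. They were Klf1, the erythroid activator of the beta-globin gene, Klf17, a germ cell factor in the mouse, and Sp7, also called Osterix, which is required for bone formation. The 7 members with an island and no peak were Klf8 and Klf12, which recruit CtBP, Klf14, an imprinted intronless gene, Klf15, Sp5, a target of Wnt signalling, Sp9, a limb bud and forebrain factor, and Egr4. Of the 10 unmarked genes, 7 had no peak inside the gene or within 10 kb of it (Klf8, Klf12, Klf14, Klf15, Klf17, Sp5 and Sp9), against 81.1% of all unmarked protein-coding genes. The marked members included widely expressed genes (Sp1, Sp3 and Klf6). They also included genes known for roles in particular tissues. Examples were Sp8 (limb bud), Sp6 (teeth and skin), Sp4 (neurons) and Klf2 (endothelium).

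**Figure D1:**
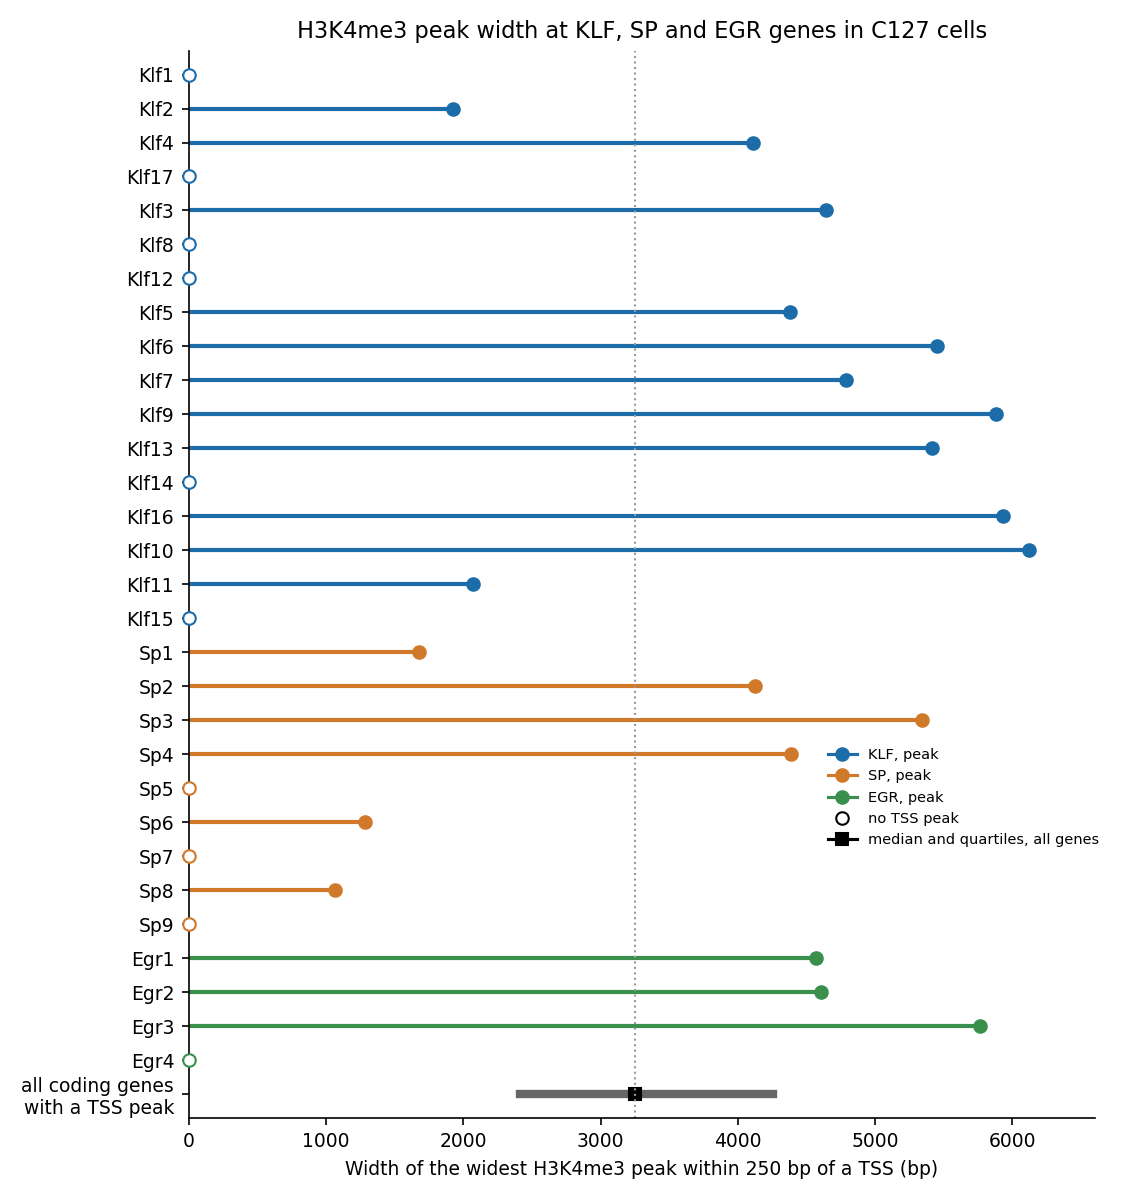
Width in bp of the widest H3K4me3 peak within 250 bp of a TSS at each of the 30 KLF, SP and EGR genes (filled circles, coloured by family and ordered by paralog group), with members without such a peak as open circles at 0 and all protein-coding genes with a TSS peak in the lowest row (square, median 3254 bp, which the dotted line repeats; bar, quartiles). Widths ran from 1069 bp at Sp8 to 6119 bp at Klf10, and 15 of the 20 marked members lay to the right of the dotted line.

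The peaks at these genes were wide. The median width at the 20 marked members was 4590.5 bp (range 1069 to 6119 bp), against 3254 bp at all protein-coding genes with a TSS peak (quartiles 2410.5 and 4258 bp). Of the 20, 15 were wider than that median and 13 were wider than the upper quartile, while 5 were narrower than the lower quartile (Klf2, Klf11, Sp1, Sp6 and Sp8). A peak of at least 5000 bp was found at 7 of the 20 members, against 14.4% of all marked genes. These were Klf6, Klf9, Klf10, Klf13, Klf16, Sp3 and Egr3, at 5341 to 6119 bp. No member reached the widths of the broadest peaks in the list, whose maximum was 37217 bp.

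The families differed in width more than in the share marked, with few genes in each. The median was 4789 bp at 11 Klf genes (1924 to 6119 bp), 4610 bp at 3 Egr genes (4571 to 5764 bp) and 2899.5 bp at 6 Sp genes (1069 to 5341 bp). The Sp values fell into a wide set of Sp3 at 5341 bp, Sp4 at 4390 bp and Sp2 at 4122 bp. A narrow set held Sp1 at 1677 bp, Sp6 at 1286 bp and Sp8 at 1069 bp. Sp1 left this narrow set when peaks less than 1000 bp apart were joined, at 3146 bp, and the Sp median was then 3634 bp. At a TSS distance of 0 bp, which left out Sp8, the Sp median was 4122 bp. The ranges of the families overlapped, and no test was made between them because genes are not replicates.

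Among the Klf1/2/4/17 group, which includes the regulators of red cells, endothelium and stem cells, 2 of 4 genes were marked. Klf2, known for endothelial quiescence, carried a narrow peak of 1924 bp (chr8:72318656-72320579), at the 13.2nd percentile of width among all marked genes. Its peak reached 377 bp upstream and 1546 bp downstream of the TSS and covered 59.0% of this gene of 2624 bp. Klf4 had a peak of 4108 bp (chr4:55530188-55534295), at the 72.1st percentile. Both promoters were rich in CpG, with 47 CpGs within 250 bp of the TSS of Klf2 and 70 at Klf4, whereas the unmarked Klf1 and Klf17 had 3 and 12.

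Klf1 was the only unmarked member with a peak within 1000 bp of a TSS. That peak (chr8:84902397-84903907, 1511 bp) began 469 bp downstream of the TSS at 84901928. It lay wholly inside the gene and covered 44.9% of it, with 814 bp in exons and 697 bp in introns. It covered no start site of any gene and met 1 CpG island.

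Of the Klf3/8/12 group, whose products bind CtBP, only Klf3 was marked. It had a peak at each of its 2 promoters on chromosome 5. The first peak, at 64802467 to 64807109, was 4643 bp wide at a TSS with 60 CpGs and reached the divergent lncRNA gene Gm20033, which starts 728 bp away on the other strand. The second, at 64809847 to 64814440, was 4594 bp wide at a TSS with 13 CpGs. Klf8 on the X chromosome had no peak at either promoter, the nearest being 137950 bp from its second TSS, although that promoter had an island of 1176 bp. Klf12 lay in a stretch of chromosome 14 without any peak for 2305165 bp, and Klf8 in one of 1127990 bp. The nearest peak to Klf12, 847991 bp from its internal TSS, was the peak of another member, Klf5.

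Klf5, which drives proliferation of epithelial progenitors, had a peak of 4377 bp over both of its start sites, on chromosome 14 at 99297397 to 99301773. The pair Klf6 and Klf7 were both marked. Klf6, a wound and growth response gene, had a peak of 5449 bp (chr13:5860614-5866062) that covered 51.4% of the gene, and it reached 868 bp upstream and 4580 bp downstream of the TSS. Klf7, a regulator of axon growth, had a peak of 4789 bp (chr1:64118207-64122995) at a TSS with only 25 CpGs.

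In the Klf9/13/14/16 group, whose products recruit SIN3A, 3 of 4 genes were marked, and each of these 3 peaks was at least 5000 bp wide. Klf9, a gene induced by glucocorticoid and thyroid hormone, had a peak of 5881 bp (chr19:23139706-23145586). A further peak of 1828 bp lay wholly within an intron of Klf9 (23150268 to 23152095), and one of 3934 bp lay upstream at the start of 2410080I02Rik. Klf16 had a peak of 5934 bp (chr10:80574103-80580036), which it shared with the divergent lncRNA gene Gm26710, 1326 bp away. Klf14 had 46 CpGs at its TSS and an island of 1742 bp, and its nearest peak lay 61810 bp away.

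Klf13, known as an activator of a chemokine gene in T lymphocytes, had 3 promoters, and each lay in a peak. The first and second, with 56 and 23 CpGs, shared a peak of 5414 bp (chr7:63935144-63940557). The third, with 5 CpGs and no island, had a peak of its own of 940 bp at 63924190 to 63925129. A peak of 1487 bp upstream of it, at 63925405 to 63926891, lay within an intron and covered no annotated start. The wide peak thus lay at a CpG-rich and the narrow one at a CpG-poor promoter of the same gene. The peaks of 940 and 1487 bp lie less than 1000 bp apart, so the narrow width depends on how peaks were joined. Sp2 showed the reverse order, with 4122 bp at a TSS with 8 CpGs and 3780 bp at one with 42.

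Klf10 and Klf11, both first described as early response genes of TGF-beta, were both marked and differed widely in width. Klf10 had the widest peak of the whole set, 6119 bp (chr15:38297550-38303668), at the 93.1st percentile, and it covered both promoters of the gene. Klf11 had a peak of 2068 bp (chr12:24650223-24652290), below the lower quartile of all marked genes. The CpG count did not follow this order, with 41 and 54 CpGs at the promoters of Klf10 and 68 at that of Klf11. Klf15, which has no close paralog in the set, had no peak at any of 3 promoters. Its main start sites had 82 and 84 CpGs within 250 bp, the most of any member, in an island of 1713 bp, and the nearest peak lay 40661 bp from its last TSS.

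**Figure D2:**
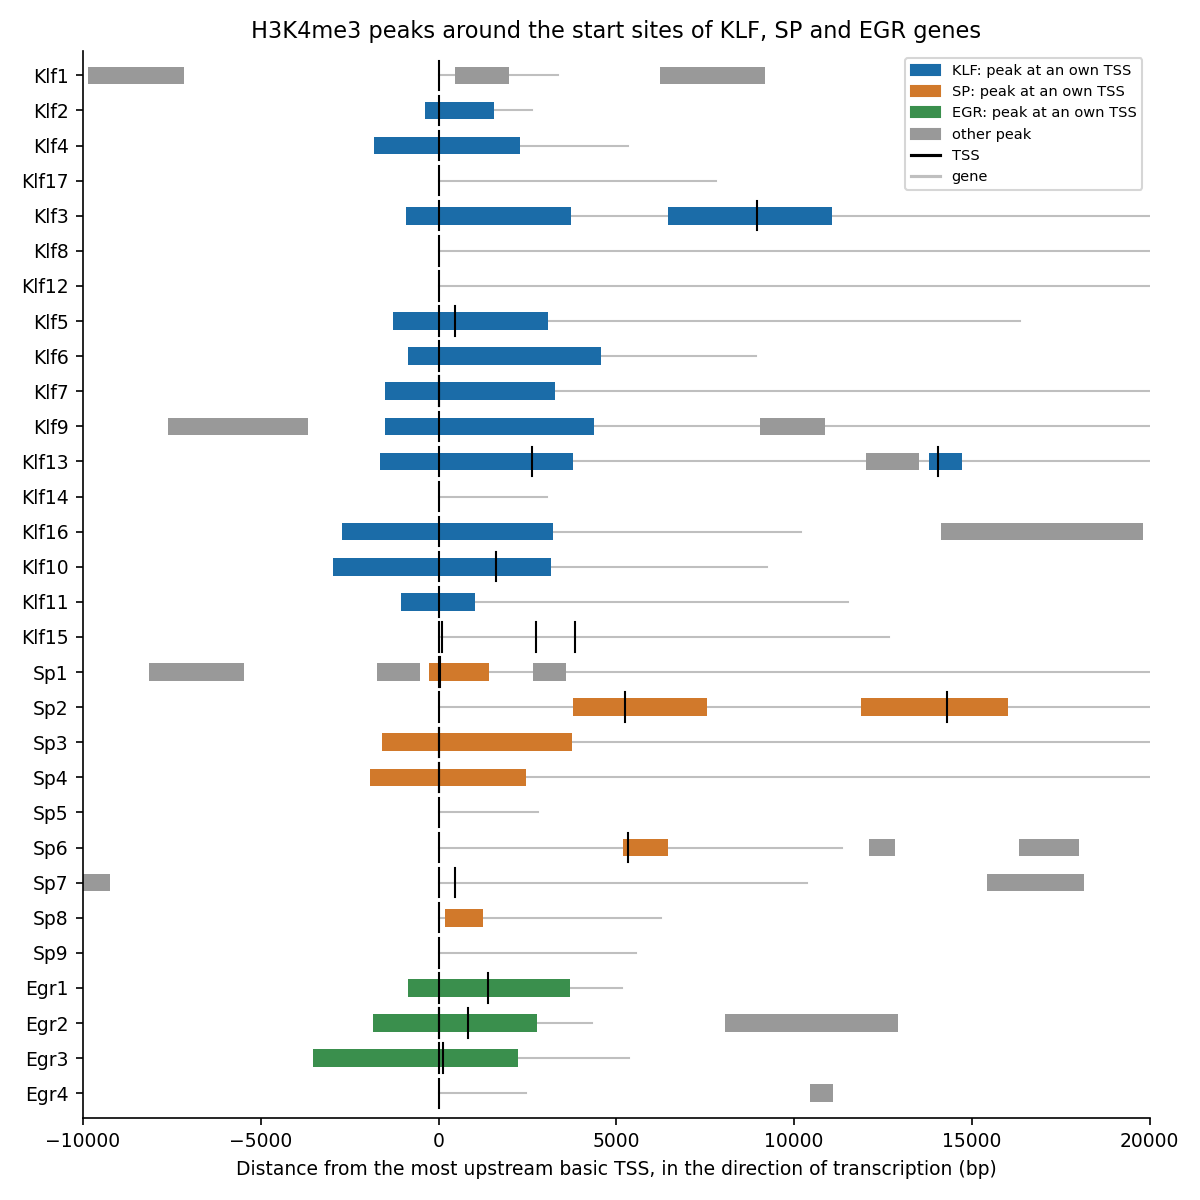
H3K4me3 peaks around the start sites of the 30 genes, with distance in bp from the most upstream basic TSS along the direction of transcription, black ticks at basic TSSs, thin lines along the gene, coloured bars for peaks at a TSS of the gene and grey bars for other peaks of the list in the gene or within 10 kb of it. Sp2 and Sp6 lack a bar at the first tick and have one at a later tick, and the grey bar of Klf1 starts 469 bp after its tick, while the second promoters of Klf8 and Klf12 lie beyond the axis.

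All 4 genes of the Sp1/2/3/4 group, which encode the larger SP proteins, were marked. Sp3, which can activate or repress, had a peak of 5341 bp (chr2:72976705-72982045) that also reached the start of the antisense lncRNA gene Sp3os, 1022 bp away. Sp4, a factor of neurons, had a peak of 4390 bp (chr12:118298915-118303304), at a TSS with 57 CpGs. Sp1, the founding member and a general activator, had a peak of only 1677 bp (chr15:102406077-102407753), at the 8.96th percentile. This narrow peak had close neighbours, one of 1190 bp upstream (102404608 to 102405797) and one of 928 bp downstream (102408993 to 102409920). Joining peaks less than 1000 bp apart added the upstream neighbour only and gave a peak of 3146 bp.

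Sp2 was marked only at internal promoters. Its most upstream TSS, at 96982959 on chromosome 11, had 9 CpGs, no island and no peak, the nearest peak starting 3777 bp downstream. The second TSS lay in an island of 1253 bp with 42 CpGs and in a peak of 3780 bp (96975403 to 96979182). The third had 8 CpGs, no island and a peak of 4122 bp (96966954 to 96971075), the widest of the gene. Nearly all of that peak, 4044 bp, was intronic.

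Among the Sp5/6/7/8/9 group, mostly developmental factors, 2 of 5 genes were marked, and both peaks were narrow. Sp6, also called epiprofin, which acts in teeth and skin, had a peak of 1286 bp (chr11:97018571-97019856) at its second promoter, with 46 CpGs. Its first TSS, with 7 CpGs, was unmarked and 5177 bp away. Sp8, a limb bud factor, had the narrowest peak of the set, 1069 bp (chr12:118846517-118847585). The basic TSS of Sp8 lay 188 bp upstream of this peak, while the RefSeq starts at 118847233 and 118847559 lay inside it. The peak of Sp8 thus covered internal starts that the basic GENCODE set does not hold. Sp5, with 19 CpGs at its TSS, had its nearest peak 33562 bp away, and Sp9, with 40 CpGs, had it 38787 bp away.

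Of the 9 Sp genes, 8 lie in the mouse genome as 4 head-to-head pairs, while Sp5 has no such partner. Each pair holds a gene of the Sp1/2/3/4 group and one of Sp6, Sp7, Sp8 and Sp9. Head-to-head here refers to strand and order only, so other genes can lie within a pair. The first TSSs were 30435 bp apart for Sp6 and Sp2, 39365 bp for Sp7 and Sp1, 291479 bp for Sp9 and Sp3, and 544959 bp for Sp8 and Sp4. In all 4 pairs the gene of the Sp1/2/3/4 group had the wider peak or the only one. The values were 4122 bp at Sp2 and 1286 bp at Sp6, 4390 bp at Sp4 and 1069 bp at Sp8, 5341 bp at Sp3 with no peak at Sp9, and 1677 bp at Sp1 with no peak at Sp7. The nearest peak to the first TSS of Sp7 lay 9248 bp upstream, between the pair, and covered no annotated start of either gene.

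The EGR genes are immediate early genes, and the peaks of the 3 marked ones covered 41.8% to 71.7% of the gene. Egr1, the serum-induced founder of the family, had a peak of 4571 bp (chr18:34858952-34863522) that covered both of its promoters and 71.7% of the gene. Of this peak, 3022 bp lay in exons. Egr2, a regulator of hindbrain segments and of myelination, had a peak of 4610 bp (chr10:67536037-67540646) over 64.3% of the gene, and Egr3, required for muscle spindles, one of 5764 bp (chr14:70073676-70079439) over 41.8%. The unmarked Egr4 had 56 CpGs at its TSS and an island of 2789 bp on chromosome 6. Its nearest peak, 10439 bp away, lay at the start of Fbxo41.

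Coverage was also set against that of genes of like length. The 5 marked members shorter than 6000 bp (Klf2, Klf4, Egr1, Egr2 and Egr3) had 41.8% to 71.7% of the gene within peaks, against a median of 65.1% at the 1546 protein-coding genes of that length with a TSS peak (quartiles 41.7% and 97.5%). Over all marked genes the median was 24.8% at the members and 9.44% at all protein-coding genes. That comparison is not matched for length, as the median gene length was 11428.5 bp at the marked members and 23206 bp at all marked genes.

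Peaks extended further into the gene than upstream at most members, as they did at most marked protein-coding genes. The median reach was 1512 bp upstream and 2929.5 bp downstream of the TSS at the members, against 940 and 2138 bp at all marked genes. Both arms together make up the peak width, so their greater length is not separate from it. The upstream arm was the longer at 3 of 20 members, near the 16.5% of all marked genes. These were Egr3, with 3527 bp upstream and 2236 bp downstream, Sp2 at its last promoter, with 2410 and 1711 bp, and Klf11, where the arms were nearly equal at 1051 and 1016 bp. The downstream arm was the longest at Klf6, with 4580 bp, and Klf9, with 4360 bp. A divergent start within 2 kb was present at 3 of the 20 (Klf3, Klf16 and Sp3), against 30.9% of all marked genes. At the other 17 the medians were 1504 bp upstream and 2455 bp downstream, against 751.5 and 2178 bp at all marked genes without a divergent start.

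**Figure D3:**
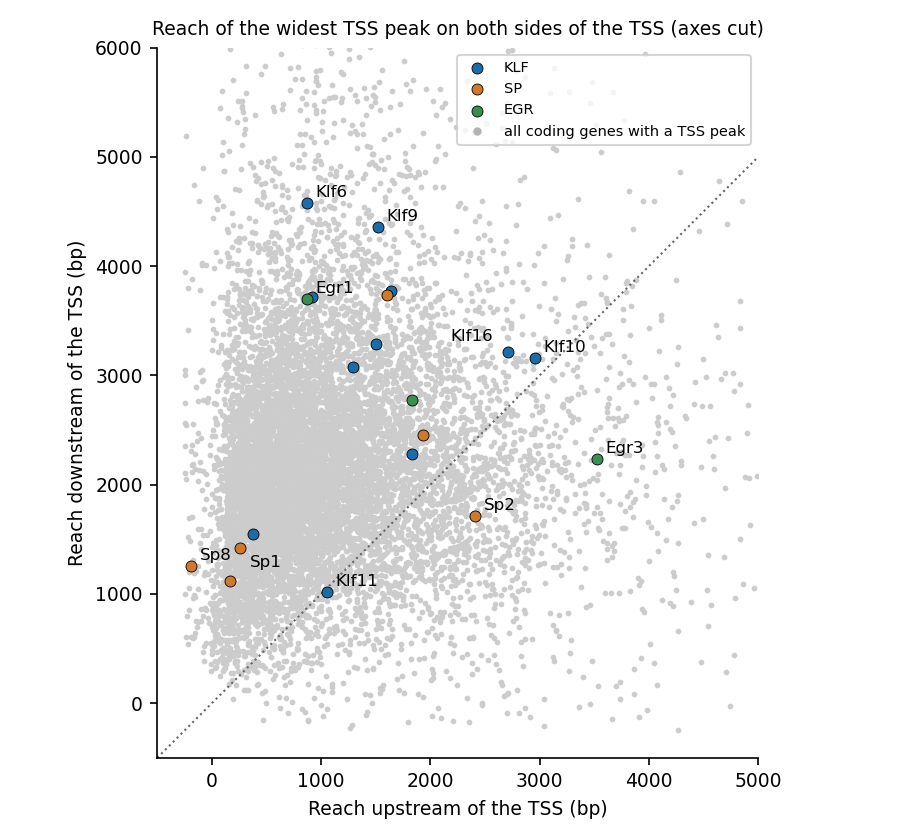
Reach in bp of the widest TSS peak downstream of the TSS (vertical axis) against its reach upstream (horizontal axis) for the 20 marked KLF, SP and EGR genes (coloured points) and for all protein-coding genes with a TSS peak (grey), with equal reach on the dotted line. Egr3, Sp2 and Klf11 lie below the line and the other 17 members above it, and some grey points lie beyond the axes.

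The start sites used by each gene were also compared. Separate peaks at 2 or more promoters were found at 3 of 20 marked members (Klf3, Klf13 and Sp2), against 2.64% of all marked genes. Of the members, 10 had 2 or more promoters, defined as TSSs more than 500 bp apart, and 7 of these were marked. In 2 of these 7 (Sp2 and Sp6) some promoter lacked a peak, against 64.0% of all marked genes with 2 or more promoters. At the other 5 (Klf3, Klf10, Klf13, Egr1 and Egr2) each annotated promoter of the basic set lay in a peak. At Klf10, Egr1 and Egr2 a single peak covered both promoters. The shares of 2.64% and 64.0% were not matched to the members for the number of promoters or the distance between them. In both Sp2 and Sp6 the unmarked promoter was the most upstream one and held under 10 CpGs.

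CpG content separated marked from unmarked members only in part. The median number of CpGs within 250 bp of the TSS was 46.5 at the 20 marked members and 26.5 at the 10 unmarked members, against 40 and 8 at all marked and unmarked protein-coding genes. At least 40 CpGs at some TSS, the median of marked genes, were found at 21 members. Of these, 17 of 21 had a peak, against 82.1% of all such genes. The exceptions were Klf14, Klf15, Sp9 and Egr4, and none of them shared 50-bp words with another promoter. Copies elsewhere in the genome were not counted, so whether non-unique reads explain the missing peaks was not tested. In the other direction the third promoter of Sp2 (8 CpGs) and that of Klf13 (5) lay in a peak at a CpG-poor start. The basic TSS of Sp8 (6 CpGs) lay outside its peak, which covered a RefSeq start with 32 CpGs in the 250 bases before it. Within the marked set, Egr2 with 21 CpGs had a peak of 4610 bp, and Klf11 with 68 CpGs one of 2068 bp.

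**Figure D4:**
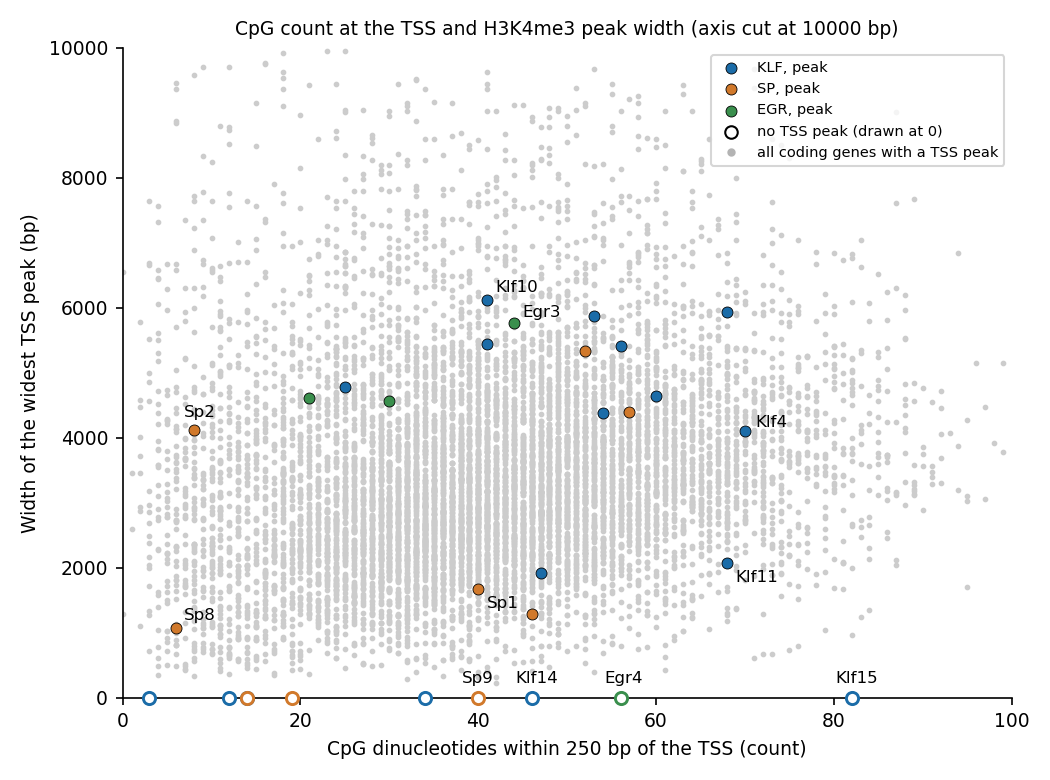
Width in bp of the widest TSS peak (vertical axis) against the number of CpGs within 250 bp of the TSS (horizontal axis) for the KLF, SP and EGR genes (coloured points), with the 10 unmarked members as open circles at 0, and for all protein-coding genes with a TSS peak (grey), taking the most upstream TSS in the peak, or the first where there is none. Among open circles, Klf15 (82), Egr4 (56), Klf14 (46) and Sp9 (40) lie at or beyond the median CpG count of marked genes (40), and the widest grey points lie beyond the axis.

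Known elements were counted in the 250 bases before RefSeq starts, on both strands, as a description of the letters and not of binding. The table of promoters held 32 starts of 22 members, 14 of Klf, 12 of Sp and 6 of Egr genes. Klf5, Klf10, Klf14, Klf16, Sp6, Sp7, Egr1 and Egr3 were not among them. The CpG count was 1 to 37 (median 18) at the 21 starts within 250 bp of a peak and 3 to 37 (median 6) at the 11 others, against a median of 10 at 21263 promoters of protein-coding genes. The GC box (GGGCGG), itself the site of SP and KLF proteins, was found at 20 of the 32 starts, against 42.6% of all promoters, and the CACCC box (CACCC) at 22, against 54.2%. The EGR site (GCGTGGGCG, whose last letters can overlap a GC box) was found at none, against 0.720% of all promoters, and the CRE (TGACGTCA) at none, against 1.92%. The TATA box (TATAAA) was found at 2 (Klf12 and the first start of Sp8), against 11.6%. Several starts of a gene share bases, so these counts are not over independent sequences. The letters of the GC box, the EGR site and the CRE each hold a CpG. The shares were not matched for CpG content or island promoters, and whether base composition accounts for them was not tested.

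The CArG box, the site of serum response factor through which serum switches on immediate early genes, was counted in the same way. It was found at 5 of the 32 starts, of 2 of the 22 genes with a sequence, against 1.39% of all promoters. The same Egr2 box (CCATATATGG) was counted at the starts 67537869, 67537870 and 67537930, which share bases. Egr1 and Egr3 had no sequence to search. The boxes are shown because Egr2 carried 2 of them inside its peak while that of Klf8 lay at an unmarked promoter. Each is given as 30 bases of the plus strand with the box in capitals. The Egr2 boxes lay at chr10:67537484-67537513 and chr10:67537787-67537816, each 62 bases before a RefSeq start, and the Klf8 box at chrX:153359541-153359570, 52 bases before one.
Egr2, first box (in the peak): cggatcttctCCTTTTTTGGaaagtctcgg
Egr2, second box (in the peak): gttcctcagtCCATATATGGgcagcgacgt
Klf8 (no peak): gccacttgtcCCTTTTAAGGaactccaccc
The RefSeq start of Egr2 at 67535499 lay outside the peak, and those at 67537566, 67537869 and 67537930 lay in it.

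Genes of proteins that act with or on these factors were examined as a list of 20 cofactors and upstream regulators. All 20 had a TSS peak, against 49.4% of all protein-coding genes and 70.2% of those with an island promoter. Island promoters were not counted for this list, so the shares are not matched. This list and the zinc finger list below were chosen with earlier results of these data known, so their shares are a description only. The median width was 4406 bp, against 3254 bp at all marked genes. Of these peaks 7 were at least 5000 bp wide, against 14.4% of all marked genes. The widest were those of Nab2, which encodes a corepressor of EGR proteins, at 9116 bp, and Sin3a, at 8734 bp, and the narrowest that of Elk1, an ETS partner of serum response factor, at 1488 bp. Srf itself had a peak of 4720 bp, and Ctbp1 and Ctbp2 had peaks of 3672 and 5320 bp. Of 12 other zinc finger genes whose products bind GC-rich DNA, 10 were marked, with a median of 5055 bp, and island promoters were again not counted. Zbtb7a had the widest peak of these at 13544 bp, and Wt1 and Ctcfl, genes of kidney and gonad and of germ cells, had none.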

How the data were processed

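H3K4me3 ChIP-seq was performed in C127 cells in 3 replicates. Per the methods of the study, the authors aligned reads to mm10 with bowtie2, discarded reads without a unique position, removed PCR duplicates with SAMtools, called peaks with MACS for each replicate against a matched control, required overlap in all of them and joined peaks within 250 bp. Bowtie2, SAMtools and MACS2 are named in the submitters' processing notes, and versions are not given in the sources used here. The deposited list has 3 columns, chromosome, start and end in bp, with no score, so replicates cannot be compared, peaks cannot be ranked by strength and depth is unknown. A promoter that recurs elsewhere can lack unique reads and thus a peak. Of the members, only Sp7 shared any 50-bp word within 250 bp of a TSS with another promoter, 1 of 182. Copies outside promoters were not counted.

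Starts were converted to 1-based positions, and 4 of 13451 peaks, on scaffolds, were left out. TSSs came from the basic set of GENCODE vM21 and were grouped into promoters within 500 bp. Where a gene had several TSS peaks, the widest was used, and reach was measured from the most upstream TSS in it. Width percentiles are the percent of marked protein-coding genes with a narrower peak. CpG islands were unions of 200-bp windows of the genome with a GC fraction from 0.5 and a CpG observed/expected ratio from 0.6 upwards. Promoter sequences came from RefSeq (GRCm38.p6), with starts and coordinates as in that table. Identity between zinc finger regions had been planned and was not computed. The overlap script was checked on simulated data. Python 3.11.15 with numpy 2.4.6, pandas 2.3.3 and matplotlib 3.10.9 was used.

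All 30 members are named, with coordinates for the widest and narrowest peaks, for genes with unmarked promoters or a peak at 250 to 1000 bp, and for paralogs of which 1 is unmarked. The members, lists and motifs were chosen with earlier results of these data known. One marker list is not reported here. No test was made, since genes are not replicates. Alternatives in the TSS distance, TSS set, peaks and island definition were computed.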

Additional observations from a re-analysis of the deposited data

How the results depend on the processing

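The number of marked members stayed at 19 to 21 except when 1 TSS per gene, the most upstream, was used, which left out Sp2 and Sp6 (18). A distance of 0 bp left out Sp8 and one of 1000 bp added Klf1. Coding transcripts alone, comprehensive GENCODE TSSs, peaks of at least 1000 bp and RefSeq TSSs (chosen after seeing the data) neither added nor removed a member. The island count was 27 with stricter islands too, while that of all 21755 protein-coding genes fell from 14808 to 12609. The median width of the members was 4610 bp at a distance of 0 bp, 4571 bp at 1000 bp and 4626.5 bp with 1 TSS per gene, and that of Klf genes was 4716 bp at 1000 bp. The Sp median, over 6 genes or fewer, moved most, to 4122 bp at 0 bp, 3033.5 bp with 1 TSS per gene, 3634 bp with peaks less than 1000 bp apart joined and 2728.5 bp with the peak at the most upstream marked TSS. For all protein-coding genes the median was 3263 bp at 0 bp, 3245 bp at 1000 bp, 3249 bp with 1 TSS per gene, 3258 bp with comprehensive TSSs, 3295.5 bp with peaks of at least 1000 bp, 3286 bp with joined peaks, 3238 bp with the most upstream marked TSS and 3261 bp with RefSeq TSSs, so the members stayed wider under each. The count of members with 2 or more separate TSS peaks was 0 with 1 TSS per gene, as that setting allows 1 start only, 2 with peaks of at least 1000 bp and with RefSeq TSSs, where Klf13 was left out, and 4 at 1000 bp, where Sp1 was added. Leaving out a replicate was not possible with 1 list, and no paired analysis was possible because the result comes from no test. Depth is unknown, and a locus without a called peak in 1 replicate is not in the list.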
